A study of Mus musculus with 12 samples.

Results

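The results concern 10 genes: 7 matrix metalloproteinases (MMPs; *Mmp2*, *Mmp7*, *Mmp9*, *Mmp12*, *Mmp13*, *Mmp14* and *Mmp19*) and 3 tissue inhibitors of metalloproteinases (TIMPs; *Timp1*, *Timp2* and *Timp3*). They were chosen by symbol and matched to Ensembl identifiers among the 40551 genes counted in total RNA of 12 mouse livers. Of these 10 genes, 9 had enough counts to be tested with the 15070 genes that passed the filter on low counts, and *Mmp7* did not. The livers fell into 4 genotypes with 3 livers each. WT livers carried intact *Mcl1* and *Sting1*. Mcl1 KO livers came from floxed *Mcl1* mice crossed with Alb-Cre mice, in which the Albumin promoter drives Cre recombinase, so that *Mcl1*, a survival gene of the BCL2 family, is removed from hepatocytes and kept in the other cells of the liver. Livers labelled Sting1 KO came from mice with a germline loss of *Sting1*, the adaptor of cytosolic DNA sensing, and intact *Mcl1*. Livers labelled Mcl1 Sting1 DKO (DKO below) came from the cross of both lines. The study used mice of both sexes, and it describes its transcriptomes of WT and Mcl1 KO livers as taken at 2 months. DKO mice were analyzed at 2 and 12 months, and which age was sequenced, as well as the age of the Sting1 KO livers, was not given in the sources used here. No treatment was named in the labels.

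MMPs are zinc-dependent endopeptidases that are made as inactive precursors, are activated by cleavage of a propeptide, and degrade collagens, elastin and other matrix proteins. TIMPs bind the active site of MMPs in a stoichiometric complex and so limit how long and where matrix is degraded. In the injured liver, stellate cells and myofibroblasts are known sources of *Mmp2*, *Mmp14* and *Timp1*, macrophages of *Mmp12* and *Mmp13*, and neutrophils of *Mmp8* and *Mmp9*.

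Each library held 28826367 to 45266387 counts on genes. *Mcl1* averaged 98.6 ± 7.36 CPM (a gene's counts scaled to the effective size of its library; mean ± SD, n = 3) in WT, 29.0 ± 4.58 in Mcl1 KO, 22.3 ± 3.96 in DKO and 81.8 ± 7.20 in Sting1 KO livers. *Sting1* counts did not separate the libraries labelled Sting1 KO from WT, with 1.86 ± 0.779 CPM against 2.36 ± 0.219 (log2 fold change of -0.34 ± 0.30, SE; adjusted p = 0.998). *Sting1* was lower in every DKO than in every Mcl1 KO liver, with 2.25 ± 0.321 against 4.75 ± 1.17 CPM, a difference that did not pass (-1.07 ± 0.29, adjusted p = 0.134). These counts therefore do not show the deletion, and the *Sting1* genotype is taken from the labels. A summed score of 4 Y-linked genes (log2(CPM + 1)) was 19.6 to 20.4 in WT replicates 2 and 3 and DKO replicate 1 and at most 0.26 in the other libraries, which are called libraries without Y-linked expression below, so the sex of the mice was not balanced over the genotypes. Small structured RNA genes took 0.391% and 0.219% of counts in Mcl1 KO replicates 2 and 3, 0.0331% in Mcl1 KO replicate 1, 0.0211% to 0.0665% in WT and 0.0926% to 0.121% in the other livers. Mcl1 KO replicate 3 also held skeletal muscle transcripts (8 marker genes at 1514 TPM in sum, a level per length that is explained below, against at most 8.60 elsewhere). These are whole livers, so fewer cells of a type and less RNA per cell cannot be told apart in any result below.

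The 10 genes spanned a wide range of levels. Levels between genes were compared as TPM, which divide counts by the length of a gene's exons and give every library an equal sum. In WT livers *Mmp19* was the highest at 97.2 ± 11.2 TPM (mean ± SD, n = 3), followed by *Timp3* at 16.2 ± 4.63, *Mmp14* at 13.6 ± 5.12 and *Timp2* at 11.8 ± 4.97, which did not differ beyond their spread. *Mmp2* came next at 6.17 ± 3.24 TPM, and the other 5 genes stayed below 1 TPM: *Mmp9* at 0.760, *Mmp12* at 0.646, *Timp1* at 0.561, *Mmp13* at 0.544 and *Mmp7* at 0.198. In Mcl1 KO livers *Mmp19* was still first at 71.4 ± 21.3 TPM, with *Mmp12* at 37.1 ± 19.0, *Mmp14* at 23.5 ± 14.5 and *Timp3* at 20.8 ± 4.24 next. These 3 did not differ beyond their spread, and in Mcl1 KO replicate 1 *Mmp12* (23.1 TPM) lay below *Mmp14* (39.5 TPM) and *Timp3* (25.2 TPM). *Mmp13* reached 9.70 ± 0.803 TPM and *Timp1* 6.65 ± 5.77 in Mcl1 KO livers. In DKO livers *Mmp12* stood at 8.46 ± 5.27 TPM, below *Mmp14*, *Timp3* and *Timp2* in each liver. It did not differ from *Mmp2* (9.44 ± 1.42 TPM) beyond the spread, and lay above it in DKO replicates 1 (12.1 against 10.4 TPM) and 2 (10.9 against 10.1 TPM). In Sting1 KO livers *Mmp12* was at 0.0825 ± 0.0194 TPM, not separable from *Mmp13* (0.117 ± 0.113) and *Mmp7* (0.127 ± 0.0519), all 3 on a few counts.

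**Figure D1:**
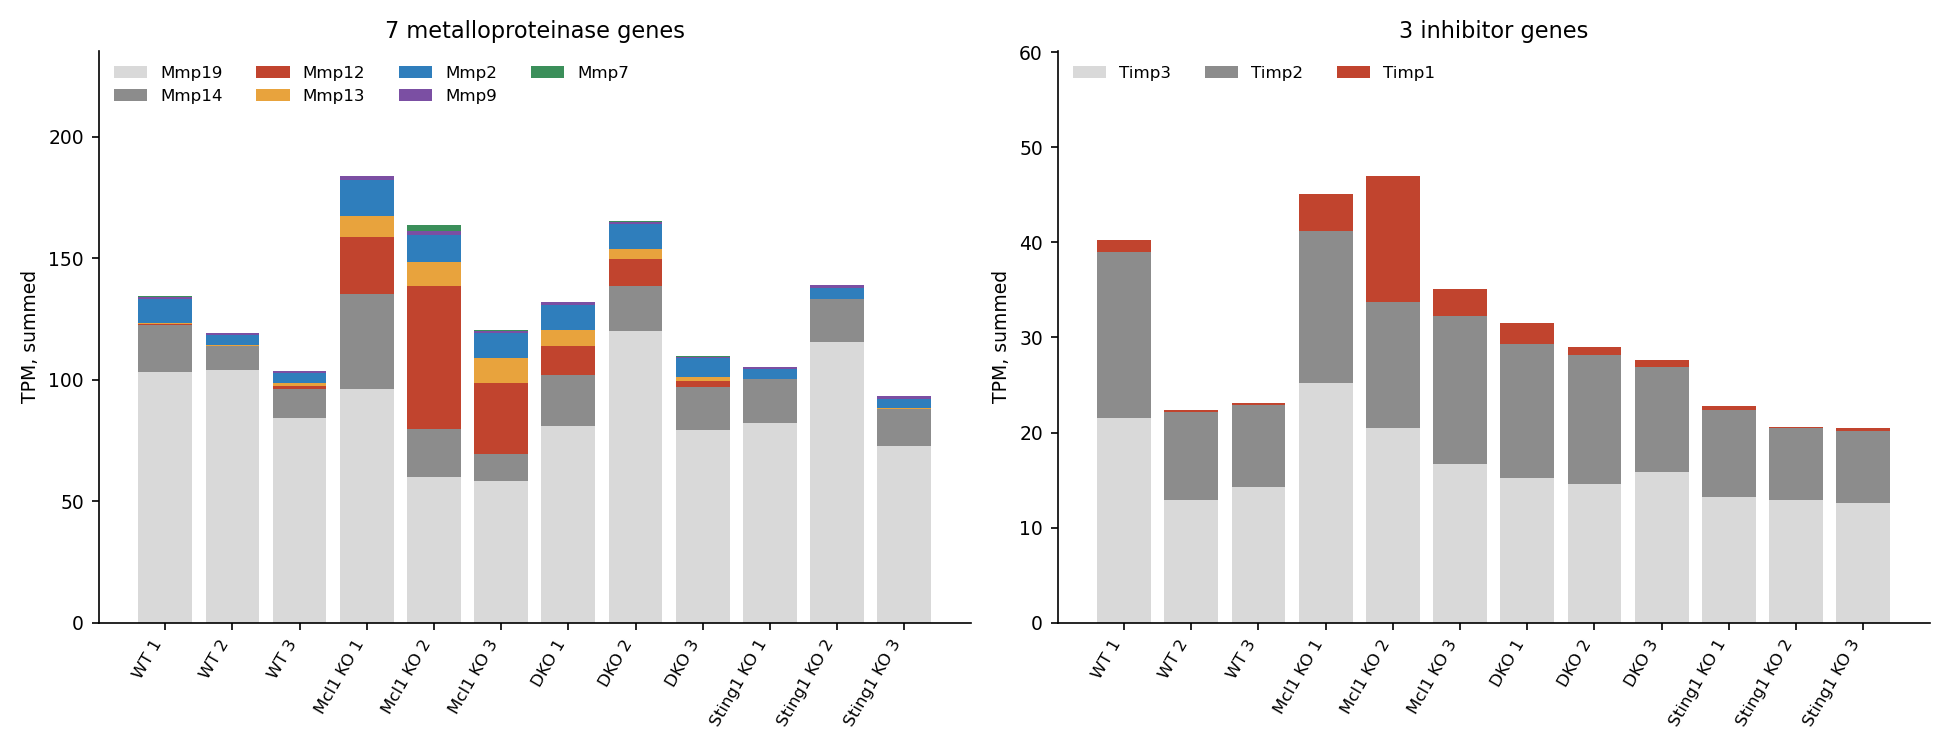
Stacked bars show the summed level (TPM, y axis, starting at 0) of the 7 MMP genes and of the 3 TIMP genes in each of the 12 livers, colored by gene. *Mmp19* fills 76.7% to 87.4% of the MMP bars of WT and 36.6% to 52.2% of those of Mcl1 KO livers, where *Mmp12* fills 12.5% to 35.9%.

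The make-up of the MMP transcripts differed between the genotypes. *Mmp19* held 76.7% to 87.4% of the summed TPM of the 7 MMP genes in WT, 77.7% to 83.0% in Sting1 KO, 61.5% to 72.7% in DKO and 36.6% to 52.2% in Mcl1 KO livers. *Mmp12* held 0.132% to 1.41% in WT, 12.5% to 35.9% in Mcl1 KO, 2.20% to 9.15% in DKO and 0.0455% to 0.109% in Sting1 KO livers. The summed MMP level itself overlapped between WT (104 to 134 TPM) and Mcl1 KO livers (121 to 184 TPM). The summed TIMP level also overlapped, at 22.4, 23.1 and 40.2 TPM in WT and 35.0 to 47.0 TPM in Mcl1 KO livers. *Timp1* made up 0.948% to 2.93% of it in WT and 7.94% to 28.3% in Mcl1 KO livers. The ratio of summed MMP to summed TIMP transcripts was 3.34 to 5.32 in WT, 3.44 to 4.08 in Mcl1 KO, 3.96 to 5.70 in DKO and 4.57 to 6.76 in Sting1 KO livers. It overlapped between WT and each of the other genotypes.

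To see what removal of *Mcl1* from hepatocytes changed, Mcl1 KO livers were first compared with WT livers with edgeR's quasi-likelihood test, and p-values were adjusted over all 15070 tested genes with a threshold of 0.05. *Mmp12*, *Mmp13*, *Mmp2* and *Timp1* rose, none of the 9 tested genes fell, and the other 5 did not pass the test. DESeq2 called these 4 and *Mmp14* (0.80, adjusted p = 0.044) higher, as it did 12.1% of all genes. *Mmp13* and *Timp1* passed the filter on low counts only through libraries in which they were higher. Without this filter edgeR called 4 of the 10 genes. Of all tested genes, 10.8% were higher and 9.43% lower by edgeR (20.2% called in all). The median log2 fold change was 0.79 over the 9 genes and -0.0049 over all genes. Libraries of Mcl1 KO and WT did not overlap for 5 of the 9 genes, the 4 called genes and *Mmp19*, against 33.3% of all genes. The same deletion was then compared on the background labelled Sting1 KO, as DKO against Sting1 KO livers, where *Mmp12* and *Mmp13* rose and the other 7 genes did not pass, with 0.803% of all genes called and 0.677% called higher. Averaged over both backgrounds, *Mmp12*, *Mmp13*, *Timp1* and *Mmp2* were higher, with 16.7% of all genes called, 9.9% higher and 6.83% lower. The averaged log2 fold change was 6.22 ± 0.64 (SE) for *Mmp12*, 4.55 ± 0.45 for *Mmp13* and 2.98 ± 0.59 for *Timp1*, and the 5 genes that did not pass ranged from -0.26 (*Mmp19*) to 0.46 (*Timp2*), with adjusted p from 0.0585 to 0.632. DESeq2 called *Timp2* as well (0.47, 0.0315).

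To see what *Sting1* loss changed in livers without hepatocyte *Mcl1*, DKO livers were compared with Mcl1 KO livers. None of the 9 genes and 0.0% of all genes passed the adjusted threshold with edgeR. At an unadjusted p under 0.05 there were 4 of the 9 (*Mmp12*, *Mmp13*, *Timp1* and *Timp3*) and 3098 of all genes, and DESeq2 called 2 of the 9 (*Timp1* and *Timp3*, both lower in DKO, where it called 2.21% of all genes lower). The libraries did not overlap for 6 of the 9 genes, all lower in DKO, whereas 9.28% of all genes were lower and 8.97% higher without overlap. In Sting1 KO against WT livers, 0 of 9 genes and 0.0% of all genes passed, with 2 of the 9 (*Mmp12* and *Mmp13*) and 821 of all genes at an unadjusted p under 0.05, and none of the 9 by DESeq2. *Mmp12* and *Mmp13* were lower in Sting1 KO livers without overlap, as were 5.46% of all genes, and no gene of the 9 was higher without overlap, as were 7.06% of all genes. Beside the values given with each gene below, *Mmp2*, *Mmp9*, *Mmp14* and *Mmp19* had log2 fold changes of -0.50, -0.56, -0.38 and 0.26 in DKO against Mcl1 KO livers (adjusted p from 0.286 to 0.487). In Sting1 KO against WT livers the 7 genes other than *Mmp12* and *Mmp13* ranged from -1.18 (*Timp1*) to 0.58 (*Mmp9*), with adjusted p from 0.921 to 0.998. *Mmp9*, *Mmp14*, *Mmp19* and *Timp3* ranged from -0.35 to 0.08 in DKO against Sting1 KO livers (adjusted p from 0.832 to 0.998). The difference between the effects of *Mcl1* deletion on the 2 *Sting1* backgrounds (the interaction) passed for 0 of 9 genes and for 0.0% of all genes. The 9 estimates ranged from -1.43 (*Timp1*) to 0.61 (*Mmp13*), with adjusted p from 0.378 to 0.99. None of the 9 and 2165 of all genes had an unadjusted p under 0.05 there, and DESeq2 called none of the 9. The comparisons of 2 groups share livers. Mcl1 KO livers and Sting1 KO livers each enter 2 of them on opposite sides, and WT and DKO livers each enter 2 on the same side.

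**Figure D2:**
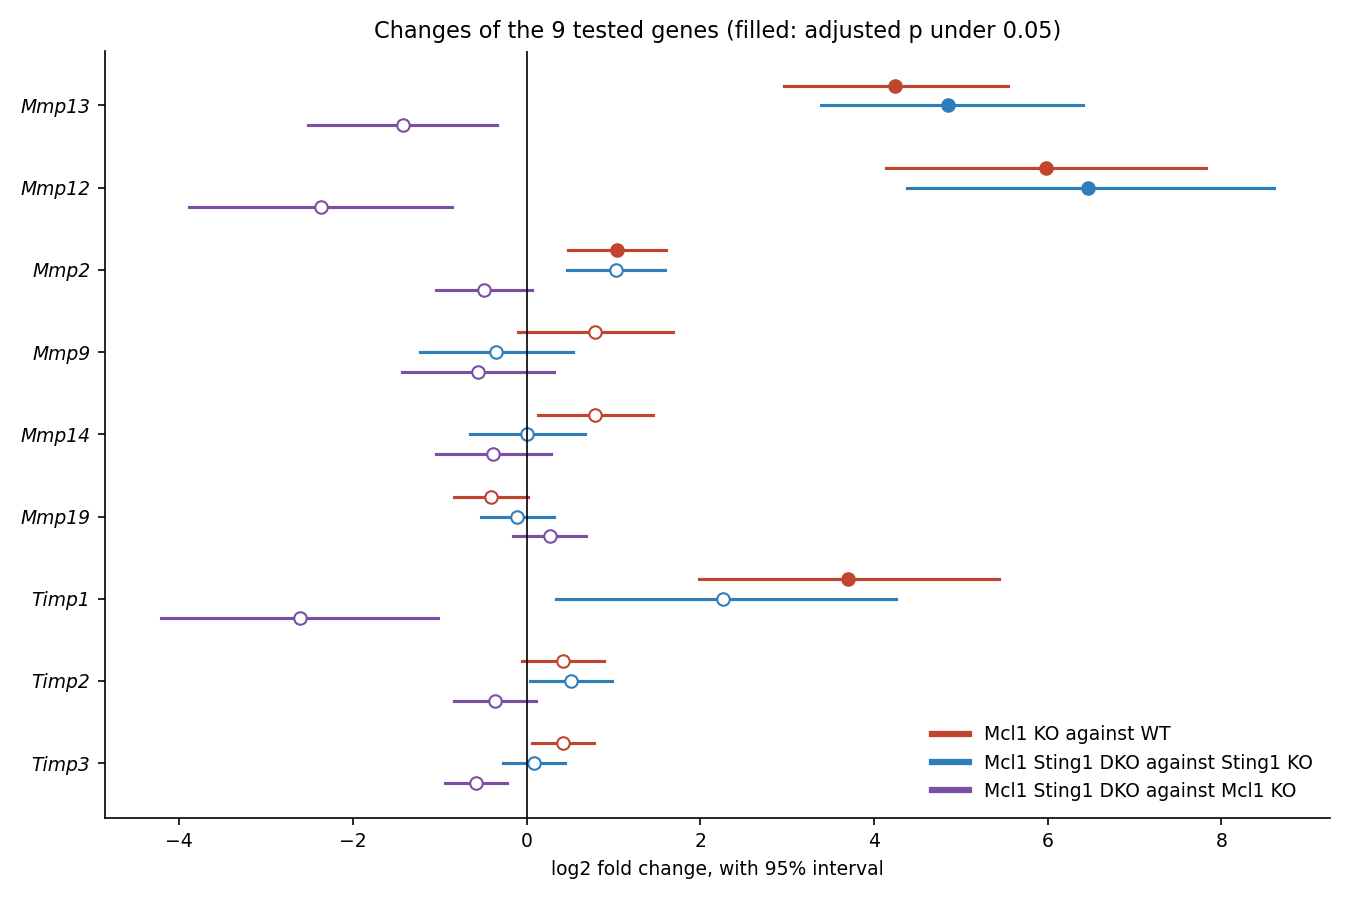
Points show the log2 fold change (x axis) of the 9 tested genes, with 95% intervals from edgeR, for Mcl1 KO against WT, DKO against Sting1 KO and DKO against Mcl1 KO. Filled points passed an adjusted p of 0.05: *Mmp12*, *Mmp13*, *Mmp2* and *Timp1* in the first comparison, *Mmp12* and *Mmp13* in the second and none in the third, where *Mmp12*, *Mmp13*, *Timp1* and *Timp3* lie left of 0 with their intervals.

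*Mmp13* (ENSMUSG00000050578, chr9:7272514-7283331 in GRCm39) encodes collagenase 3, the main interstitial collagenase of rodents. Values of 3 livers are given here in the order of replicates 1, 2 and 3. Its level was 0.264, 0.237 and 0.726 CPM in WT livers and 5.67, 8.90 and 8.48 CPM in Mcl1 KO livers. DKO livers had 4.54, 2.88 and 1.18 CPM, and Sting1 KO livers had 0.0291, 0.0531 and 0.193 CPM. All 6 livers without hepatocyte *Mcl1* lay above all 6 livers with it, every Mcl1 KO liver lay above every DKO liver, and every WT liver lay above every Sting1 KO liver, whose values rest on 1, 2 and 8 counts. *Mmp13* was 19.0-fold higher in Mcl1 KO than in WT livers (log2 fold change of 4.24 ± 0.59, SE; adjusted p = 0.00169), and it was called without any single library, at 3.97 to 4.91. In DKO against Sting1 KO livers its log2 fold change was 4.85 ± 0.69 (adjusted p = 0.0206). Without DKO replicate 1 or 2, or any single Sting1 KO replicate, only 1 to 3 of all genes were called in this comparison, against 121 with all livers. The call of *Mmp13* was lost in these fits, without DKO replicate 1 (4.36, adjusted p = 0.0760), DKO replicate 2 (4.85, 0.0704), or Sting1 KO replicates 1 (4.47, 0.107), 2 (4.57, 0.158) or 3 (5.99, 0.0655), the direction being kept in each. In DKO against Mcl1 KO livers it was -1.43 ± 0.50 (adjusted p = 0.164) and in Sting1 KO against WT livers -2.03 ± 0.77 (0.813).

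*Mmp12* (ENSMUSG00000049723, chr9:7344381-7369499) encodes macrophage elastase. It was counted at 0.607, 0.326 and 3.04 CPM in WT livers and at 40.4, 138 and 66.7 CPM in Mcl1 KO livers. DKO livers had 22.9, 19.7 and 4.84 CPM, and Sting1 KO livers had 0.175, 0.133 and 0.217 CPM. The order of the genotypes was that of *Mmp13*, with Mcl1 KO above DKO above WT above Sting1 KO and no overlap between neighbors. The Sting1 KO values rest on 6, 5 and 9 counts. Their difference from WT did not pass (log2 fold change of -2.86 ± 1.03, SE, adjusted p = 0.813). DKO replicate 3 and WT replicate 3 were the closest livers of these 2 groups. *Mmp12* was 63.0-fold higher in Mcl1 KO than in WT livers (log2 fold change of 5.98 with a 95% interval of 4.14 to 7.82, adjusted p = 0.00175), and it was called without any single library, at 5.36 without Mcl1 KO replicate 2 to 7.42 without WT replicate 3. In DKO against Sting1 KO livers the log2 fold change was 6.46 ± 0.97 (SE; adjusted p = 0.025). This call was lost without DKO replicate 1 (6.10, adjusted p = 0.0760), DKO replicate 2 (6.27, 0.0704), or Sting1 KO replicates 1 (6.46, 0.107), 2 (6.30, 0.158) or 3 (6.66, 0.143). These are the same fits in which only 1 to 3 of all genes were called. In DKO against Mcl1 KO livers the log2 fold change of *Mmp12* was -2.37 ± 0.69, which did not pass (adjusted p = 0.139) but did without Mcl1 KO replicate 1 (-2.69, 0.0262), a fit in which 9.08% of all genes were called lower. The interaction was 0.48 with a 95% interval of -2.27 to 3.29 for *Mmp12* and 0.61 (-1.40 to 2.69) for *Mmp13*, so neither equal nor clearly unequal effects on the 2 backgrounds can be read from 3 livers a group.

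**Figure D3:**
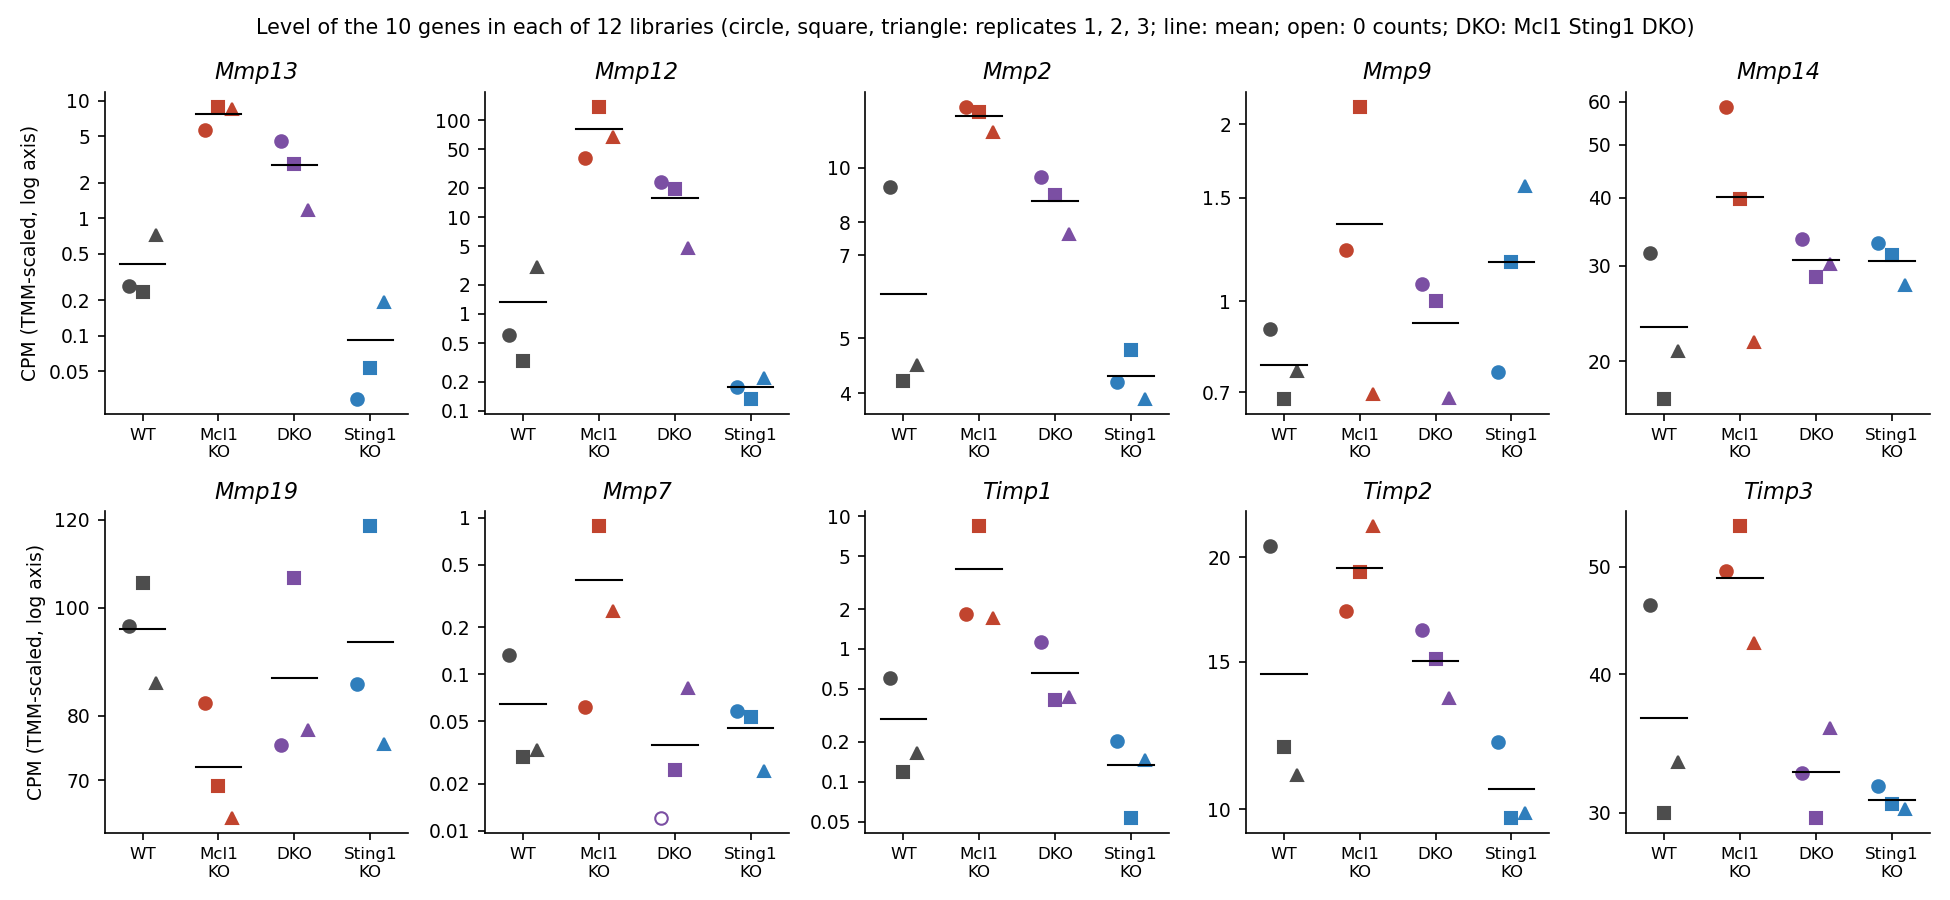
Each panel shows 1 of the 10 genes in CPM on a logarithmic y axis, by genotype. Circles, squares and triangles are replicates 1, 2 and 3, lines are group means, and an open symbol marks the liver with 0 counts of *Mmp7*. *Mmp13* and *Mmp12* separate the 4 genotypes without overlap, *Timp1* separates Mcl1 KO livers from the rest, and *Mmp9*, *Mmp14* and *Mmp19* overlap in most comparisons.

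*Mmp2* (ENSMUSG00000031740, chr8:93553902-93580049) encodes gelatinase A, which cleaves basement membrane and denatured collagen. Its level was 9.23, 4.21 and 4.49 CPM in WT livers and 12.8, 12.5 and 11.6 CPM in Mcl1 KO livers. DKO livers had 9.62, 8.94 and 7.63 CPM, and Sting1 KO livers had 4.19, 4.78 and 3.91 CPM. Mcl1 KO livers lay above all others, DKO livers lay above Sting1 KO livers, and WT replicate 1 stood at the level of the DKO livers. *Mmp2* rose 2.05-fold in Mcl1 KO against WT livers (log2 fold change of 1.04 with a 95% interval of 0.48 to 1.60, adjusted p = 0.0177). The call was lost without WT replicate 2 (0.83, adjusted p = 0.0712), WT replicate 3 (0.87, 0.0681) or Mcl1 KO replicate 2 (1.02, 0.0560). Averaged over both backgrounds it was 1.03 ± 0.18 (SE; adjusted p = 0.00346) and was called without any single library. In DKO against Sting1 KO livers the log2 fold change of 1.02 ± 0.26 did not pass (adjusted p = 0.102), although DESeq2 called it (1.03, 0.00983), as did edgeR without WT replicate 1 (1.02, 0.0314). The interaction was -0.01 (95% interval of -0.80 to 0.78).

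*Mmp9* (ENSMUSG00000017737), which encodes gelatinase B, a protease stored in neutrophil granules, stayed between 0.682 and 2.14 CPM in all 12 livers. WT livers had 0.897, 0.682 and 0.759 CPM and Mcl1 KO livers had 1.22, 2.14 and 0.696 CPM. The groups overlapped in every comparison, and the log2 fold change in Mcl1 KO against WT livers was 0.79 ± 0.41 (adjusted p = 0.18). The 2 gelatinases thus differed in whether they passed the test, but the difference between them was not tested.

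*Mmp14* (ENSMUSG00000000957) encodes the membrane-type protease MT1-MMP, which activates the precursor of MMP2 at the cell surface. It was at 31.6, 17.1 and 20.9 CPM in WT livers and at 58.8, 39.7 and 21.7 CPM in Mcl1 KO livers, with DKO livers at 28.6 to 33.6 CPM and Sting1 KO livers at 27.6 to 32.9 CPM. The Mcl1 KO livers spread the most and overlapped with WT. Its log2 fold change of 0.79 ± 0.30 did not pass (adjusted p = 0.084), but it passed without Mcl1 KO replicate 3 (1.09, 0.0138), which held the muscle transcripts, and without WT replicate 1 (1.08, 0.0429). *Mmp19* (ENSMUSG00000025355), whose product cleaves basement membrane proteins, was the only one of the 9 genes with lower values in all 3 Mcl1 KO livers (82.2, 69.1 and 64.7 CPM) than in all 3 WT livers (96.2, 105 and 85.6 CPM). This difference did not pass (log2 fold change of -0.41 ± 0.19, adjusted p = 0.147), and 17.1% of all genes were lower without overlap. In DKO livers *Mmp19* was at 75.2 to 106 CPM and in Sting1 KO livers at 75.5 to 119 CPM.

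*Mmp7* (ENSMUSG00000018623), the gene of matrilysin, an epithelial protease, was barely detected. Its raw counts were 5, 1 and 1 in WT livers and 3, 29 and 8 in Mcl1 KO livers, against 0, 1 and 3 in DKO and 2, 2 and 1 in Sting1 KO livers. Mcl1 KO replicate 2 held more counts than the other 11 livers, and Mcl1 KO and WT livers overlapped. Without a filter on low counts its log2 fold change in Mcl1 KO against WT livers was 2.48 ± 0.98 (adjusted p = 0.115), so a change was not detectable at this depth. In the same fit it was -3.28 ± 1.07 in DKO against Mcl1 KO livers (adjusted p = 0.184).

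Of the 3 inhibitors, *Timp1* rose and the other two did not pass the test. *Timp1* (ENSMUSG00000001131, chrX:20736316-20740976) encodes a secreted inhibitor of most MMPs. Its level was 0.607, 0.119 and 0.165 CPM in WT livers and 1.84, 8.47 and 1.71 CPM in Mcl1 KO livers. DKO livers had 1.14, 0.414 and 0.438 CPM, and Sting1 KO livers had 0.204, 0.0531 and 0.145 CPM. All Mcl1 KO livers lay above the other 9, DKO livers lay above Sting1 KO livers, and DKO livers overlapped with WT through WT replicate 1. *Timp1* was 13-fold higher in Mcl1 KO than in WT livers (log2 fold change of 3.70 with a 95% interval of 1.99 to 5.44, adjusted p = 0.00966). Without Mcl1 KO replicate 2, the liver with the highest value, the log2 fold change was 2.53 (adjusted p = 0.0414). In DKO against Mcl1 KO livers it was -2.61 (95% interval of -4.21 to -1.02), with an adjusted p of 0.135 by edgeR and 0.0152 by DESeq2. The edgeR value was -2.96 (adjusted p = 0.0214) without Mcl1 KO replicate 1 and -1.44 (0.492) without Mcl1 KO replicate 2. In DKO against Sting1 KO livers it was 2.27 ± 0.90 (SE; adjusted p = 0.339). *Timp1* overlaps *Syn1* on the opposite strand, and whether strand was used in counting is not given in the sources used here.

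*Timp2* (ENSMUSG00000017466), whose product inhibits MMPs and also carries the MMP2 precursor to MMP14, was at 20.6, 11.9 and 11.0 CPM in WT livers and at 17.2, 19.2 and 21.8 CPM in Mcl1 KO livers. Its log2 fold change there was 0.42 ± 0.22 (adjusted p = 0.181). DKO livers (13.6 to 16.4 CPM) lay below all Mcl1 KO and above all Sting1 KO livers (9.76 to 12 CPM), and neither difference passed (log2 fold changes of -0.37, adjusted p = 0.344, and 0.51, 0.405). *Timp3* (ENSMUSG00000020044), the inhibitor that binds to the matrix and also blocks ADAM17, was at 46.2, 30 and 33.3 CPM in WT livers and at 49.5, 54.4 and 42.7 CPM in Mcl1 KO livers. DKO livers had 32.6, 29.7 and 35.8 CPM, below every Mcl1 KO liver, and Sting1 KO livers had 30.2 to 31.7 CPM. The log2 fold change of *Timp3* was 0.42 ± 0.16 in Mcl1 KO against WT (adjusted p = 0.0864) and -0.58 ± 0.16 in DKO against Mcl1 KO livers (0.135 by edgeR, 0.0362 by DESeq2, and 0.0476 by edgeR without Mcl1 KO replicate 1). WT replicate 1, the WT liver without Y-linked expression, had the highest WT level of 7 of the 10 genes. Without it, 7 of the 9 tested genes were called higher in Mcl1 KO against WT livers (9.44% of all genes were), with *Timp2* at 0.76 (adjusted p = 0.0138), *Timp3* at 0.62 (0.0183) and *Mmp14* at 1.08 (0.0429) added to the 4.

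Sex and RNA make-up were unevenly spread over the genotypes, and the 4 calls of Mcl1 KO against WT were therefore also made with each of them in the fit. With Y-linked expression as a covariate, *Mmp12* (6.79, adjusted p = 0.0044), *Mmp13* (4.99, 0.00273) and *Timp1* were called and *Mmp2* was not (0.80, 0.0787). With the share of small structured RNA as a covariate, *Mmp12* (4.83, 0.0136) and *Mmp13* (3.80, 0.0152) were called, and *Timp1* (2.28, 0.126) and *Mmp2* (1.09, 0.102) were not. Among the 9 livers without Y-linked expression, which hold only 1 WT liver, so that it is assumed to vary like the other groups, none of the 9 genes passed (adjusted p = 0.0927 for *Mmp12*, 0.0949 for *Mmp13*, 0.265 for *Timp1* and 0.370 for *Mmp2*, the last at a log2 fold change of 0.41). Averaged over both backgrounds in the same 9 livers, *Mmp12* (6.58) and *Mmp13* (4.60; adjusted p = 0.0257 for both) and *Mmp2* (0.68, 0.0475) were called and *Timp1* was not (adjusted p = 0.142).

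*Mmp12*, *Mmp13* and *Mmp7* lie in a cluster of 10 MMP genes on chromosome 9, which spans 427 kb (chr9:7272514-7699587) and holds no other protein-coding gene. After the values were seen, the genes of this cluster were set beside the 13 MMP genes elsewhere and the neighbors outside the cluster, as a description. All 5 cluster genes with enough counts (*Mmp13*, *Mmp12*, *Mmp3*, *Mmp8* and *Mmp27*) were higher in Mcl1 KO than in WT livers, as were 10.8% of all genes. With the share of small structured RNA as a covariate, *Mmp3* (adjusted p = 0.187), *Mmp8* (0.0615) and *Mmp27* (0.109) were not called. *Mmp7* was not tested, and *Mmp1a*, *Mmp1b*, *Mmp10* and *Mmp20* had 0 counts in all 12 libraries. *Mmp13*, *Mmp3* and *Mmp8* passed the filter only through libraries in which they were higher, so the 5 do not stand for the whole cluster. Of the MMP genes elsewhere, 10 were tested and 2 were higher, *Mmp2* and *Mmp24*, of which *Mmp24* likewise passed the filter only through libraries in which it was higher. Of 8 other protein-coding genes within 500 kb of the cluster, 7 were tested (*Dync2h1*, *Dcun1d5*, *Tmem123*, *Birc2*, *Birc3*, *Yap1* and *Cfap300*) and none was called. In DKO against Sting1 KO livers 2 of the 5 cluster genes, *Mmp12* and *Mmp13*, were called higher, as were 0.677% of all genes. *Mmp3* (0.35, adjusted p = 0.914), *Mmp8* (0.63, 0.786) and *Mmp27* (1.30, 0.311) did not pass there. Averaged over both backgrounds all 5 were called higher, as were 9.9% of all genes.

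**Figure D4:**
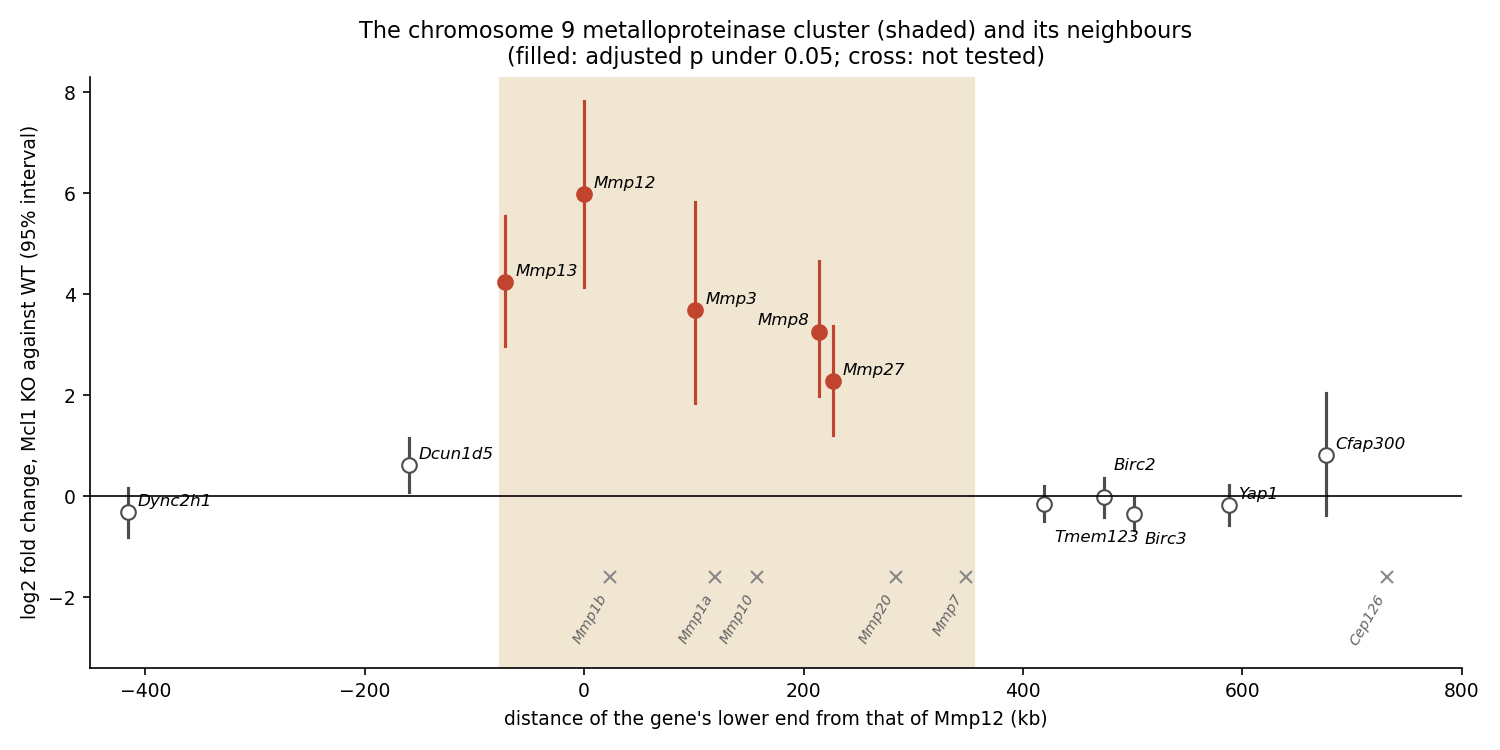
The log2 fold change of Mcl1 KO against WT livers (y axis, 95% intervals from edgeR) is plotted against the distance in kb of each gene's lower end from that of *Mmp12* (x axis). The shaded cluster of MMP genes holds 5 filled points (adjusted p under 0.05) at 2.27 to 5.98, and the 7 open points outside it are neighbors that did not pass, while crosses mark genes that were not tested.

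The other 3 called genes of the cluster were expressed at low levels. *Mmp8*, the collagenase of neutrophils, had 3, 1 and 3 raw counts in WT and 20, 36 and 18 in Mcl1 KO livers (log2 fold change of 3.26 ± 0.61, adjusted p = 0.00533). *Mmp27* had 15, 18 and 39 raw counts in WT and 130, 156 and 101 in Mcl1 KO livers (2.27 ± 0.49, 0.0104). *Mmp3*, the gene of stromelysin 1, an activator of other MMPs, had 2, 1 and 0 against 6, 14 and 23 raw counts. The groups did not overlap for any of the 3. The summed counts of *Mmp3* per library total gave a ratio of 14.8 with a 95% exact interval of 4.73 to 74.4, which covers counting error only, and its call (adjusted p = 0.0152) was lost without WT replicate 2 (0.0585) or WT replicate 3 (0.0521). *Mmp24*, a membrane-type MMP outside the cluster, had 0, 3 and 0 raw counts in WT and 19, 31 and 9 in Mcl1 KO livers, a ratio of 20.3 (6.61 to 101 by the same interval). Its call (adjusted p = 0.0268) was lost without WT replicate 1 (0.0723), WT replicate 3 (0.0874) or Mcl1 KO replicate 2 (0.104). It was also lost with the small structured RNA covariate (0.194). The remaining tested MMP genes that are not among the 10 did not pass: *Mmp23* had a log2 fold change of 1.02, *Mmp17* of 0.29, *Mmp28* of 0.14, *Mmp11* of -0.07 and *Mmp15*, the most abundant of them in WT at 53.3 TPM, of -0.34.

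Promoters of inducible MMP genes are known to hold sites for AP-1 and for ETS family factors (PEA3 sites). The 250 bases before the start site of each gene were therefore searched on both strands for TGANTCA (AP-1) and AGGAAG (PEA3), which share no bases in the matches found. The windows of the called cluster genes *Mmp13*, *Mmp12* and *Mmp3* and of the called inhibitor *Timp1* are shown because they place the motifs of genes that rose in the same livers. Sequences are from the GRCm39 primary assembly with the canonical start sites of GENCODE vM39, all on the plus strand, 5′ to 3′, in lower case with AP-1 and PEA3 matches in capitals. The windows lie at chr9:7272264-7272513 (*Mmp13*), chr9:7347124-7347373 (*Mmp12*), chr9:7445572-7445821 (*Mmp3*) and chrX:20736101-20736350 (*Timp1*).
Mmp13: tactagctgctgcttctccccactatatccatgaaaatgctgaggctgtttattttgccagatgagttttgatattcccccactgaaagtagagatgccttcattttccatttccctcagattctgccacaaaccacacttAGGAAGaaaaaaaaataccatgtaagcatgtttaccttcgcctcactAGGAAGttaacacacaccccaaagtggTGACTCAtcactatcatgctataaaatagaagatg
Mmp12: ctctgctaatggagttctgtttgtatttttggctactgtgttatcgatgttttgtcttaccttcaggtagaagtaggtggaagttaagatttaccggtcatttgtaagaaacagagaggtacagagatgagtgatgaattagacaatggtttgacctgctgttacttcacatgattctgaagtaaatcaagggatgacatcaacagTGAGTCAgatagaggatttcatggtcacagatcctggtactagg
Mmp3: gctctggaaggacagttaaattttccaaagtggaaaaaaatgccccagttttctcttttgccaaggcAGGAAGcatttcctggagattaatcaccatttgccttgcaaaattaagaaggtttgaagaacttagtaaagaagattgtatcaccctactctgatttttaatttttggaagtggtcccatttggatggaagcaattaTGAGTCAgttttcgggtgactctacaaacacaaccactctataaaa
Timp1: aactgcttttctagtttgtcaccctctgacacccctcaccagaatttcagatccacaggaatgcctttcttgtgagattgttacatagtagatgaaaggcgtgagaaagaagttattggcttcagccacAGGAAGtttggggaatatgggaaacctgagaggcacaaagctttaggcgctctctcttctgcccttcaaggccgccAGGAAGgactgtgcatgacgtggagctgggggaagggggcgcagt
An AP-1 match began 35 bases before the start site of *Mmp13*, 44 before that of *Mmp12* and 46 before that of *Mmp3*. *Mmp13* also held PEA3 matches 109 and 62 bases before its start, and *Mmp3* held 1 at 183 bases. *Timp1* held no AP-1 match in this window and PEA3 matches 121 and 45 bases before its start. Of the 10 genes, 5 held an AP-1 match (*Mmp7*, *Mmp9*, *Mmp12*, *Mmp13* and *Mmp19*), while 6.17% of 21770 protein-coding genes did. PEA3 matches were found for 6 of the 10, against 28.9% of all genes. Among the genes searched, *Mmp13*, *Mmp12* and *Mmp3* held an AP-1 match and were called, and *Mmp9* and *Mmp19* held it and did not pass the test. *Mmp2*, *Timp1*, *Mmp8* and *Mmp27* were called without it. Whether matches go with calls was not tested. A match is a string of letters and was not tested as a site.

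The genes around the MMPs were described from lists of known roles. Among 15 genes of the plasmin system, convertases and MMP partners, 14 were tested, of which 4 rose and 3 fell in Mcl1 KO against WT livers (10.8% and 9.43% of all genes did), with a median log2 fold change of 0.023. The urokinase receptor *Plaur* (2.24 ± 0.29, SE; adjusted p = 0.00133), tissue plasminogen activator *Plat* (1.81 ± 0.35, 0.00644) and urokinase *Plau* (1.54 ± 0.25, 0.00285) rose. Named after their values were seen, *Cd44*, a surface anchor of MMP9, rose (1.02, 0.00392), and plasminogen itself, *Plg* (-0.73, 0.0139), and the convertases *Furin* (-0.79, 0.00617) and *Pcsk6* (-0.99, 0.0141) fell. Each of *Plaur*, *Plat*, *Plau*, *Cd44* and *Furin* was called without any single library, while *Plg* was not called without Mcl1 KO replicate 2 (adjusted p = 0.0579) and *Pcsk6* without WT replicate 2 (0.0521) or Mcl1 KO replicate 2 (0.0557). With the small structured RNA covariate *Plaur*, *Plau* and *Cd44* were still called. *Plat* (adjusted p = 0.0858), *Plg* (0.173), *Furin* (0.0724) and *Pcsk6* (0.22) were not. So the rise of the receptor gene and of the activator gene *Plau* was still called with this covariate. The rise of the activator gene *Plat* and the fall of the hepatocyte-made precursor gene *Plg* were not.

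Of 9 genes of other MMP inhibitors and clearance receptors, 8 were tested and 3 rose (10.8% of all genes did), with a median of 0.40. They were *Thbs1* (2.19 ± 0.35, adjusted p = 0.00283) and *Thbs2* (0.97 ± 0.31, 0.0435), the thrombospondins that bind MMP2, and *Pcolce*, an enhancer of collagen maturation (0.90 ± 0.23, 0.0215). *Thbs1* was called without any single library, *Pcolce* was not in 4 and *Thbs2* was in only 2 of the 12 fits that left out 1 library (adjusted p up to 0.0881 and 0.15). Of 14 ADAM and ADAMTS protease genes, all were tested and 3 rose (10.8% of all genes did): *Adam8*, a protease of myeloid cells (3.67 ± 0.58, 0.00274), *Adamts12* (2.26 ± 0.43, 0.00609) and *Adam15* (0.93 ± 0.18, 0.00608). With the small structured RNA covariate *Thbs1*, *Adam8* and *Adamts12* were still called, and *Thbs2* (adjusted p = 0.14), *Pcolce* (0.122) and *Adam15* (0.0621) were not. None of these 3 lists had a called gene in DKO against Mcl1 KO or in DKO against Sting1 KO livers. Averaged over both backgrounds, 3 of the 8, 6 of the 14 and, for the plasmin list, 4 higher and 3 lower of the 14 were called. Of all genes, 9.9% were called higher and 6.83% lower in that average.

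Markers of several cell types known to make MMPs and TIMPs were also higher in the Mcl1 KO livers in which the 4 genes rose. In Mcl1 KO against WT livers, 10.8% of all genes rose and 9.43% fell, the shares to set beside each count below. Of 9 markers of recruited monocytes and scar-associated macrophages, 8 rose in this comparison. Their summed level was 108 to 124 TPM in WT, 278 to 459 in Mcl1 KO, 196 to 235 in DKO and 108 to 181 in Sting1 KO livers. Of 10 Kupffer cell and macrophage markers, 6 rose (647 to 1042 TPM in WT, 1141 to 1626 in Mcl1 KO, 1266 to 1438 in DKO and 807 to 1127 in Sting1 KO livers). These sums overlapped between DKO and Mcl1 KO livers. Of the 10 markers, 3 were lower in DKO than in Mcl1 KO livers without overlap, as were 9.28% of all genes. Of 7 tested neutrophil markers among 9, 4 rose (7.14 to 11.2 TPM in WT, 24.1 to 54.6 in Mcl1 KO, 13.5 to 18.5 in DKO and 5.21 to 19.6 in Sting1 KO livers). The myofibroblast and fibrillar collagen list, with 5 of 9 risen, summed to 60.1 to 137 TPM in WT, 240 to 309 in Mcl1 KO, 123 to 255 in DKO and 65.0 to 93.1 in Sting1 KO livers. WT replicates overlapped with no Mcl1 KO liver in these 4 lists, whereas the stellate cell list overlapped (198 to 311 TPM in WT, 229 to 340 in Mcl1 KO, 293 to 324 in DKO and 253 to 265 in Sting1 KO livers) with 2 of 9 risen. None of 7 tested biliary markers and none of 8 sinusoidal endothelial markers was called, and 2 of 8 hepatocyte markers fell (*Cyp2e1* and *Serpina1c*), with hepatocyte sums at 88702 to 133463 TPM in WT and 73668 to 126885 in Mcl1 KO livers. In DKO against Sting1 KO livers, where *Mmp12* and *Mmp13* rose, 2 of the 9 monocyte and scar-associated macrophage markers were called higher, as were 0.677% of all genes. None of the other lists had a called gene there. Also lower in DKO than in Mcl1 KO livers without overlap were 6 of the 9 monocyte and scar-associated macrophage markers and 3 of the 7 tested neutrophil markers. So were 2 of the 9 myofibroblast, 2 of the 9 stellate cell and 2 of the 7 tested biliary markers. None of the markers in these lists was higher without overlap, as were 8.97% of all genes, and none was called. The part of these cells in the levels of the 10 genes was not tested.

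**Figure D5:**
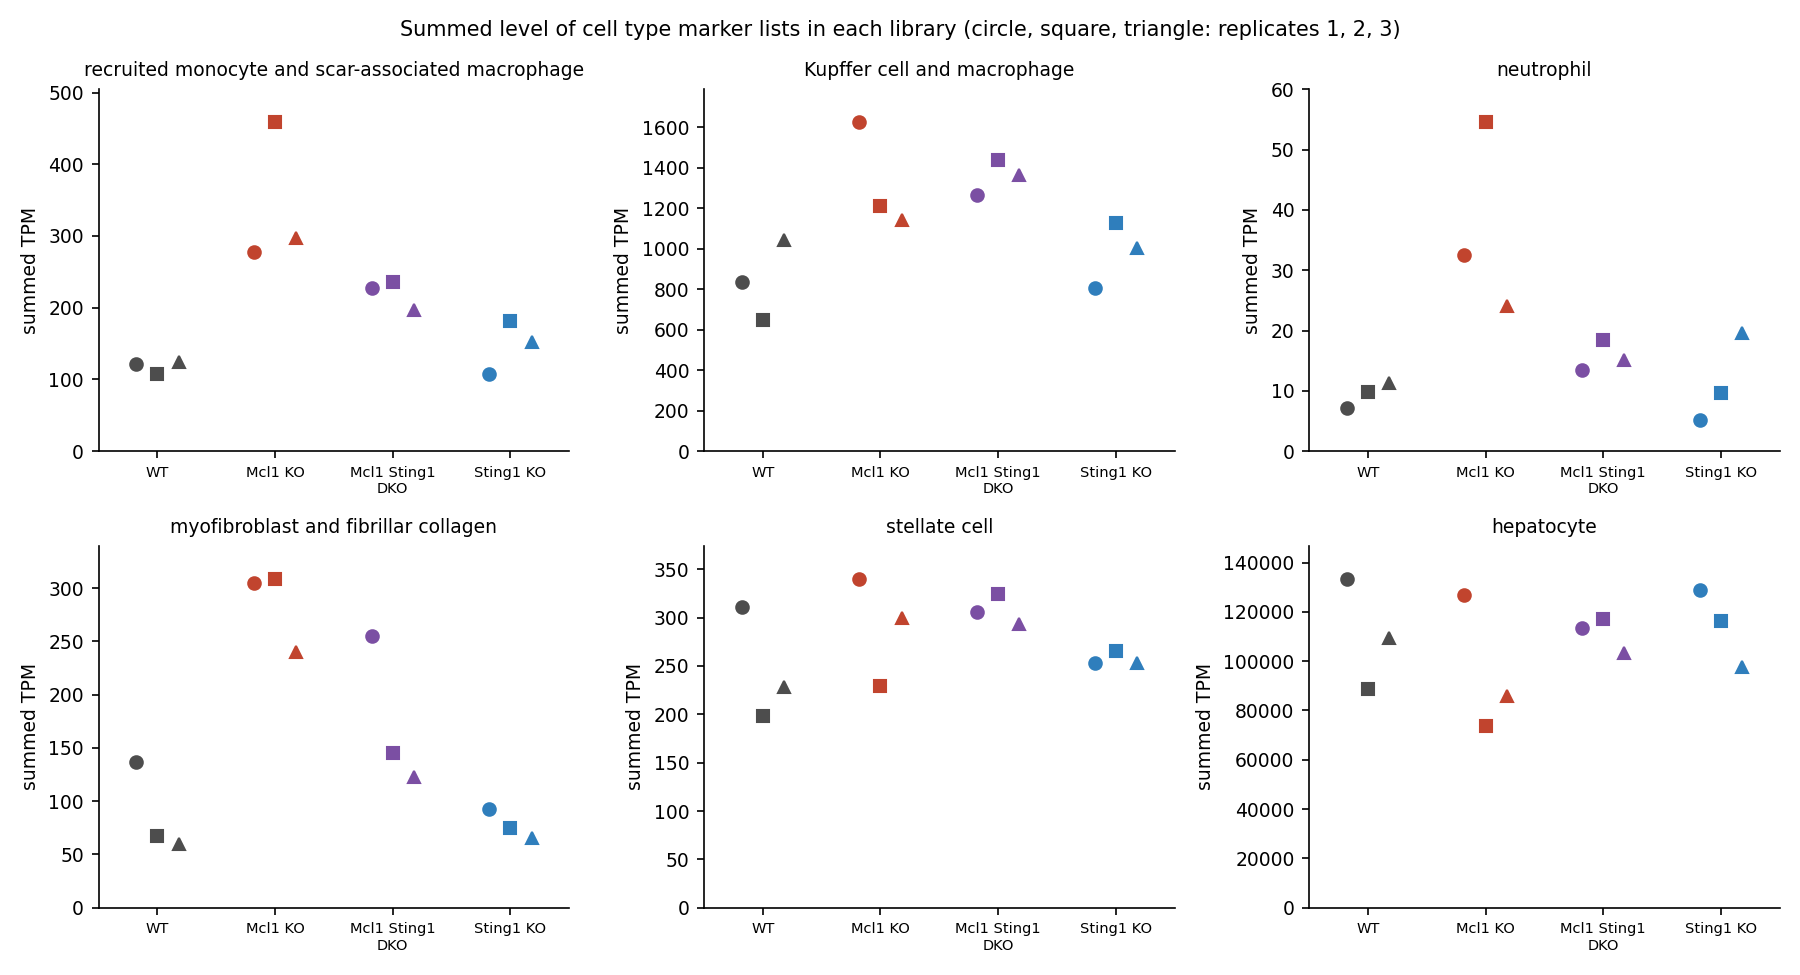
Summed level (TPM, y axis) of 6 cell type marker lists in each of the 12 livers, by genotype, with 1 point per liver. The monocyte and scar-associated macrophage list lies at 108 to 124 TPM in WT and 278 to 459 TPM in Mcl1 KO livers, while hepatocyte markers overlap between all genotypes.

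The genes whose profile over the 12 livers was nearest to that of a called gene were found by the root mean square difference of log2(CPM + 0.5) profiles, each centered on its own mean, among 12559 genes with at least 1 CPM on average. For *Mmp13* they were *Trem2* (0.30), a lipid receptor of macrophages, *Clec7a* (0.41), the receptor dectin-1 of myeloid cells, and *Gsta13* (0.47). For *Mmp12* they were *Gpnmb* (0.71), *Ly6d* (0.996) and *Gsta1* (1.06), farther away than for the other called genes. For *Timp1* they were *Anxa2* (0.30), *Cd63* (0.30) and *Shc2* (0.31), and *Cd63* encodes a surface protein that binds TIMP1. For *Mmp2* they were *Sparcl1* (0.15), a matrix protein gene, *Lama2* (0.18), a laminin chain, and *Cx3cl1* (0.19). *Trem2* averaged 0.756 CPM in WT, 9.59 in Mcl1 KO, 3.95 in DKO and 0.315 in Sting1 KO livers, next to 0.409, 7.68, 2.87 and 0.0917 CPM of *Mmp13*. These distances are a description over libraries that share genotype, sex and depth differences.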

How the data were processed

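Total RNA from 12 mouse livers was sequenced on an Illumina NovaSeq, and the authors deposited raw counts of reads per gene, which were not normalized. The submitters' processing notes name GRCm39, STAR and featureCounts; versions, the annotation release and the use of strand are not given in the sources used here. The labels and the study's methods name different RNA extraction kits. Genotype and replicate came from the labels, and replicates are separate livers. No pair of libraries of a genotype agreed within sampling noise.

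The deposited counts were scaled to CPM by TMM and tested with edgeR 4.0.16 (filterByExpr by genotype, glmQLFit and glmQLFTest, all 12 libraries, prior count of 0.125, no covariates, standard errors of the unshrunk coefficients) in R 4.3.3, with Benjamini-Hochberg adjustment over 15070 genes. The common dispersion was 0.0699. The alternative test was that of DESeq2 1.42.0. Tables and plots were made in Python 3.11.15 (pandas 2.3.3, numpy 2.4.6, matplotlib 3.10.9). TPM used the summed exon lengths of GENCODE vM39 (GRCm39), where 1018 identifiers lack a length and hold up to 0.101% of counts per library. On counts simulated for Mcl1 KO against WT, 200 genes with at least 1 CPM on average were changed by a log2 of 2, up or down. Of these edgeR called 190 and 9 others (14800 tested), and DESeq2 called 191 and 35 others (13606 tested). Smaller changes and genes at lower levels were not simulated as changed, so this recovery does not apply to them.

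The rule named all 10 genes in every comparison, and genes that did not pass are given there by value or range. Of the other lists, all tested MMP genes and at most the 4 called genes with the largest change per list are named, unless stated. The members and lists were chosen with earlier results of these data known, and 1 gene of the lists is not reported here. Alternatives were DESeq2, its size factors, no filter, only the groups compared, covariates for Y-linked expression and small structured RNA, a replicate block, each library left out in turn and the longest transcript as length; the fit of libraries without Y-linked expression was added after seeing the data.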

Additional observations from a re-analysis of the deposited data

How the results depend on the processing

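Of the 9 tested genes, the number called in Mcl1 KO against WT livers was 4 and ranged from 3 to 7 when 1 library was left out; it was 5 by DESeq2 (*Mmp14* added), 3 when only these groups were fitted (*Mmp2* lost, 1.06, adjusted p = 0.0720), 2 with the small structured RNA covariate and 0 among libraries without Y-linked expression (all genes called there: 539 and 4, against 3050). In DKO against Mcl1 KO livers it was 0 (of 0 genes called in all), with 2 by DESeq2 (of 663) and 0 to 3 when 1 library was left out (3 of 3108 without Mcl1 KO replicate 1). In DKO against Sting1 KO livers it was 2, with 1 when only these groups were fitted (*Mmp13* at 4.85, adjusted p = 0.0683), 0 among libraries without Y-linked expression and 0 to 3 when 1 library was left out. Of all genes, 121 were called in DKO against Sting1 KO livers, 17 when only these groups were fitted and 1 to 249 when 1 library was left out. Averaged over both backgrounds, 4 of the 9 genes were called, with 5 by DESeq2 (*Timp2* added) and 4 to 6 when 1 library was left out, and the 4 genes were called in all 12 such fits. All genes called in that average were 2522, with 3168 by DESeq2 and 1711 to 4267 when 1 library was left out. Called genes kept their sign in every alternative. Signs turned only in genes or comparisons that were not called. Among libraries without Y-linked expression they were *Timp2* in Mcl1 KO against WT (-0.10), *Mmp14* in DKO against Sting1 KO (-0.065) and in Sting1 KO against WT (-0.039), and the interactions of *Mmp2* (0.54), *Mmp12* (-0.96), *Mmp13* (-0.47) and *Timp3* (0.0090). With the Y-linked covariate they were the interactions of *Mmp2* (0.39), *Mmp12* (-0.74) and *Mmp13* (-0.58), and with the small structured RNA covariate *Mmp14* in DKO against Sting1 KO (-0.0012) and *Mmp19* in Sting1 KO against WT (0.018). When 1 library was left out, they were *Mmp14* in DKO against Mcl1 KO (-0.68 to 0.0060) and DKO against Sting1 KO (-0.064 to 0.061), *Mmp19* in DKO against Sting1 KO (-0.28 to 0.10) and Sting1 KO against WT (-0.25 to 0.093), *Mmp9* averaged over both backgrounds (-0.020 to 0.37) and the interactions of *Mmp2* (-0.47 to 0.19), *Mmp12* (-0.96 to 1.097), *Mmp13* (-0.059 to 1.75) and *Timp2* (-0.25 to 0.26). The causes were not tested.

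Replicate numbers did not pair the livers, since same-numbered livers of different genotypes had correlations of -0.62 to 0.36. With the replicate number as a block, 4 genes were called in Mcl1 KO against WT, 2 in DKO against Sting1 KO, 0 in DKO against Mcl1 KO and 5 averaged over both backgrounds, where *Timp2* (0.49, adjusted p = 0.0491) was added. Of all genes, 2591, 129, 0 and 2254 were called with this block, in the same order.

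The counts of all genes called also moved: 1178 when only Mcl1 KO and WT livers were fitted, 1500 with the Y-linked covariate, 3846 by DESeq2, and 1233 to 5232 when 1 library was left out. Depth limits *Mmp7*, *Mmp3*, *Mmp8* and *Mmp24*, with fewer than 40 counts in every library. No setting moved the median of all genes by more than 0.0426 (log2).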
